A study of Mus musculus with 10 samples.

Results

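The genes flanking Zbtb4 on mouse chromosome 11 were examined in embryonic fibroblasts with and without a Zbtb4 knock-out. The set was given as a list of 46 neighbours, 21 on the side that ends at Chd3 and 25 on the side that ends at Asgr2. Membership followed position along the chromosome, but 6 other protein-coding genes within the span were not on the list. The list was also drawn up with earlier results of these data known. Of the 46 genes, 39 had a probe set that carries their symbol alone, out of 22180 genes measured in all. Cyb5d1, Naa38, Tnfsf13, Tnfsf12, Tmem102 and Tnk1 had only probe sets that carry a neighbour's symbol as well, Kctd11 had none, and these 7 were not analysed as single genes.

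The data came from 10 one-colour Affymetrix arrays of total RNA, 5 labelled Zbtb4 knock-out and 5 labelled wild type, all from primary fibroblasts of the dorsal skin of E13.5 embryos. No treatment is named in either group, and the labels give neither the strain, nor the deleted part of Zbtb4, nor how many embryos stand behind a sample. P-values therefore measure only the spread between these samples, which may be technical. Values are the authors' deposited log2 expression values, and a difference of 1 on this scale is a doubling of signal.

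Zbtb4 encodes a zinc finger protein of the BTB family that binds methylated CpG sites and acts mainly as a transcriptional repressor. Its neighbourhood mixes genes that nearly every cell uses, such as those for the main subunit of RNA polymerase II and a translation initiation factor, with genes known for expression in testis, nerve, muscle, liver or macrophages. Genes beside a targeted locus stay linked to the targeted allele when animals are bred, which is why they are often looked at separately from the rest of the genome.

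The promoter sequences below show how CpG content differs among some of these neighbours, since Zbtb4 can bind methylated CpG. Whether these CpGs are methylated in the cells was not measured. Each window runs from 250 bases before to 50 bases after the annotated start, 5' to 3' on the gene's own strand, as given by RefSeq for GRCm38.p6, and capitals mark CpG dinucleotides. Fxr2, Gps2 and Phf23 are shown because they had the smallest p-values among the measured neighbours that have a window, and Slc35g3 and Chrnb1 because they lie next to Zbtb4. The Fxr2 window is at chr11:69632721-69633020 on the plus strand, Gps2 at chr11:69913770-69914069 (plus), Phf23 at chr11:69995516-69995815 (plus), Slc35g3 at chr11:69761795-69762094 (minus) and Chrnb1 at chr11:69795888-69796187 (minus).
Fxr2: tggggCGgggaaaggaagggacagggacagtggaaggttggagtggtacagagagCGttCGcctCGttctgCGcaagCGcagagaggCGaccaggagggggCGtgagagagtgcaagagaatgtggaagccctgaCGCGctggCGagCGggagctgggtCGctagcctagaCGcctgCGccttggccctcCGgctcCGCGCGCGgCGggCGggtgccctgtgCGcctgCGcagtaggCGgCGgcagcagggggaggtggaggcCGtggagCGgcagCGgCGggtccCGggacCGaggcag
Gps2: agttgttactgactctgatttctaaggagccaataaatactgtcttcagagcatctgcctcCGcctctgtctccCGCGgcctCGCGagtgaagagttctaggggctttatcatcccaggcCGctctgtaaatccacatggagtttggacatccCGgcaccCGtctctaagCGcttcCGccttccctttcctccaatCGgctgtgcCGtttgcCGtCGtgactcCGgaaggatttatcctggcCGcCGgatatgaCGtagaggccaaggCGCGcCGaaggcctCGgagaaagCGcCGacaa
Phf23: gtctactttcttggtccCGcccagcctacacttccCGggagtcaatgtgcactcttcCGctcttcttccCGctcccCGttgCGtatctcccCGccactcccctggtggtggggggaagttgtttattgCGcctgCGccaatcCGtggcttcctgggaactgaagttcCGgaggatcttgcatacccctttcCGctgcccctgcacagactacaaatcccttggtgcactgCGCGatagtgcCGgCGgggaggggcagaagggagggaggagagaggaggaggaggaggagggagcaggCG
Slc35g3: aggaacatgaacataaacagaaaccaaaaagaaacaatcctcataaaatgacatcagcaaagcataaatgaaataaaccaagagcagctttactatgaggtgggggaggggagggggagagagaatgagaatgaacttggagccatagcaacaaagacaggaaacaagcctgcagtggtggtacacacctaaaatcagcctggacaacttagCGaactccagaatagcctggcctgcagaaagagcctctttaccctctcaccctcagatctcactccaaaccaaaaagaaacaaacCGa
Chrnb1: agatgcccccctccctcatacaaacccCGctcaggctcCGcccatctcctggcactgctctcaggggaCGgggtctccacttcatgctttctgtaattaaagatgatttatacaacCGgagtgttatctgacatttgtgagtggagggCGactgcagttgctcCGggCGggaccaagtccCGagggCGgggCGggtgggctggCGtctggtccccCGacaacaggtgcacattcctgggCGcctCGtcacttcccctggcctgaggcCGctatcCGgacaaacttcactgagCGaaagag

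The Fxr2 window holds 32 CpGs and the Gps2 window 24. Phf23 and Chrnb1 have 17 each. Slc35g3, known as a testis gene, has 2. RefSeq windows were found for 35 of the 46 neighbours, 31 of them measured, and Tmem88, whose values stand apart below, was not among them. The most upstream window was used where a gene has several.

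Zbtb4 itself gave the check of the labels. On knock-out arrays 1 to 5 its log2 values were 5.44, 5.76, 5.04, 5.62 and 5.39, and on wild-type arrays 1 to 5 they were 6.06, 6.03, 5.94, 6.23 and 6.11. Every knock-out array lay below every wild-type array, with a difference of -0.62 (SE 0.12, limma unadjusted p = 0.00017, adjusted p = 0.628, exact permutation p = 0.00794). The difference did not pass over all genes. The probe set is not tied to the deleted part in the sources used here, so the remaining signal says nothing about how much intact transcript was left.

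None of the 39 measured neighbours passed the threshold, an adjusted p under 0.05 over all genes in limma, and 0.0% of all 22180 genes did. At an unadjusted limma p under 0.05, 1 neighbour was higher (Fxr2), where 3.25% of all genes were called, and 1 was lower (Tmem88), where 2.73% were called. Both together make 5.13% of the neighbours, close to the 5.98% of all genes called in either direction. The arrays of both genotypes did not overlap for 1 neighbour, Tmem88, or 2.56%, beside 0.987% of all genes in either direction with 0.446% lower and 0.541% higher. With 39 genes, 1 gene more or less moves these shares by 2.56 percentage points.

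**Figure D1:**
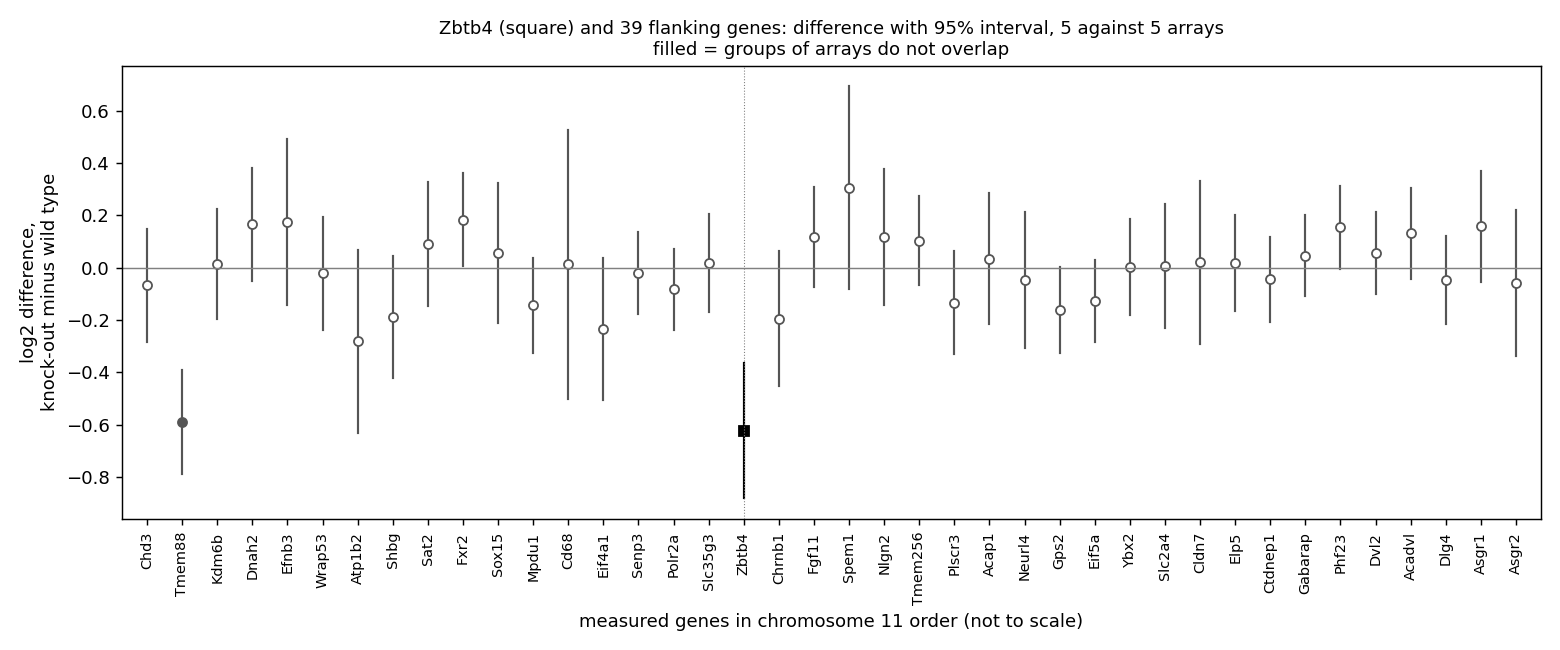
Log2 difference, knock-out minus wild type, of Zbtb4 (black square) and 39 flanking genes in chromosome order; points are limma estimates from 5 against 5 arrays, bars are 95% intervals, and filled symbols mark genes whose groups of arrays do not overlap. Zbtb4 at -0.62 and Tmem88 at -0.59 lie far below 0, Fxr2 has an interval that just clears 0 (0.006 to 0.36), and the intervals of all the other genes include 0.

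The neighbours went both ways, with 22 higher and 17 lower means in knock-out cells and a median difference of 0.013, beside 0.0020 over all genes. The split turned to 18 higher and 21 lower when each array was centred on its median. In size, the median absolute difference was 0.092 over the neighbours and 0.078 over all genes. A difference of at least 0.1 was seen for 48.7% of neighbours and 39.4% of all genes, and one of at least 0.2 for 10.3% and 11%. The 4 neighbours past 0.2 were Tmem88, Spem1, Atp1b2 and Eif4a1.

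Distance from Zbtb4 was counted in protein-coding genes in RefSeq order. The 12 measured neighbours within 9 genes of it had a median difference of -0.0041 and a median absolute difference of 0.12. The 15 neighbours 10 to 19 genes away had 0.0065 and 0.092, and the 12 neighbours at 20 or more had 0.020 and 0.057. On the Chd3 side 8 of 17 means were higher, and on the Asgr2 side 14 of 22. Just beyond the outermost neighbours, the next 25 measured genes on the Chd3 side had 11 higher and 14 lower means (median -0.053). The next 25 on the Asgr2 side had 19 higher and 6 lower (median 0.052). Median absolute differences of these outer genes were 0.1021 on the Chd3 side and 0.1034 on the Asgr2 side. Size therefore did not fall steadily with distance, and a trend was not tested. None of those 50 genes passed over all genes in limma, where their smallest adjusted p was 0.804, and 7 of them (14.0%) had an unadjusted p under 0.05, beside 5.98% of all genes. Of the 50, 1 gene on the Asgr2 side (2.0%) had genotypes whose arrays stood apart, beside 0.987% of all genes.

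None of the genes nearest to Zbtb4 had groups of arrays that stood apart. Chrnb1 encodes the beta subunit of the muscle acetylcholine receptor and is transcribed towards Zbtb4. Its log2 values were 5.64, 5.31, 5.83, 5.92 and 5.50 on knock-out arrays 1 to 5 and 5.64, 6.03, 5.93, 5.72 and 5.86 on wild-type arrays 1 to 5. The groups overlapped, with knock-out arrays 2 and 5 below all wild-type arrays and the other 3 at or above the lowest of them. The difference was -0.20 (SE 0.12, 95% interval -0.45 to 0.062), limma's adjusted p was 0.842 and the exact permutation p 0.167, and without knock-out array 2 the difference came to -0.11.

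Slc35g3, a solute carrier family gene on the other side, had values of 2.56, 2.86, 2.59, 2.85 and 2.68 in knock-out cells and 2.81, 2.67, 2.68, 2.53 and 2.77 in wild-type cells. The groups were fully mixed, and the difference was 0.019 (SE 0.087, 95% interval -0.17 to 0.21, limma adjusted p = 0.985). All 10 values lay below the median of their array over all genes, which was 4.29 to 4.34. Whether such values lie above background is not known, since no measure of background came with the data.

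Polr2a, which encodes the largest subunit of RNA polymerase II and follows Slc35g3, read 8.69, 8.72, 8.47, 8.69 and 8.68 on the knock-out arrays and 8.69, 8.72, 8.79, 8.75 and 8.71 on the wild-type arrays. Knock-out array 3 was the lowest of all 10, and the other values lay between 8.68 and 8.79. The difference was -0.082 (SE 0.071, 95% interval -0.24 to 0.072, limma adjusted p = 0.879, exact permutation p = 0.0556), and -0.038 without knock-out array 3. The other RNA polymerase II subunit genes, 10 of 11 measured, split into 6 higher and 4 lower means (median 0.0059), and 0 had an unadjusted p under 0.05. Fgf11, which encodes an intracellular member of the fibroblast growth factor family and lies beyond Chrnb1, differed by 0.12 (SE 0.089) at values below every array's median.

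**Figure D2:**
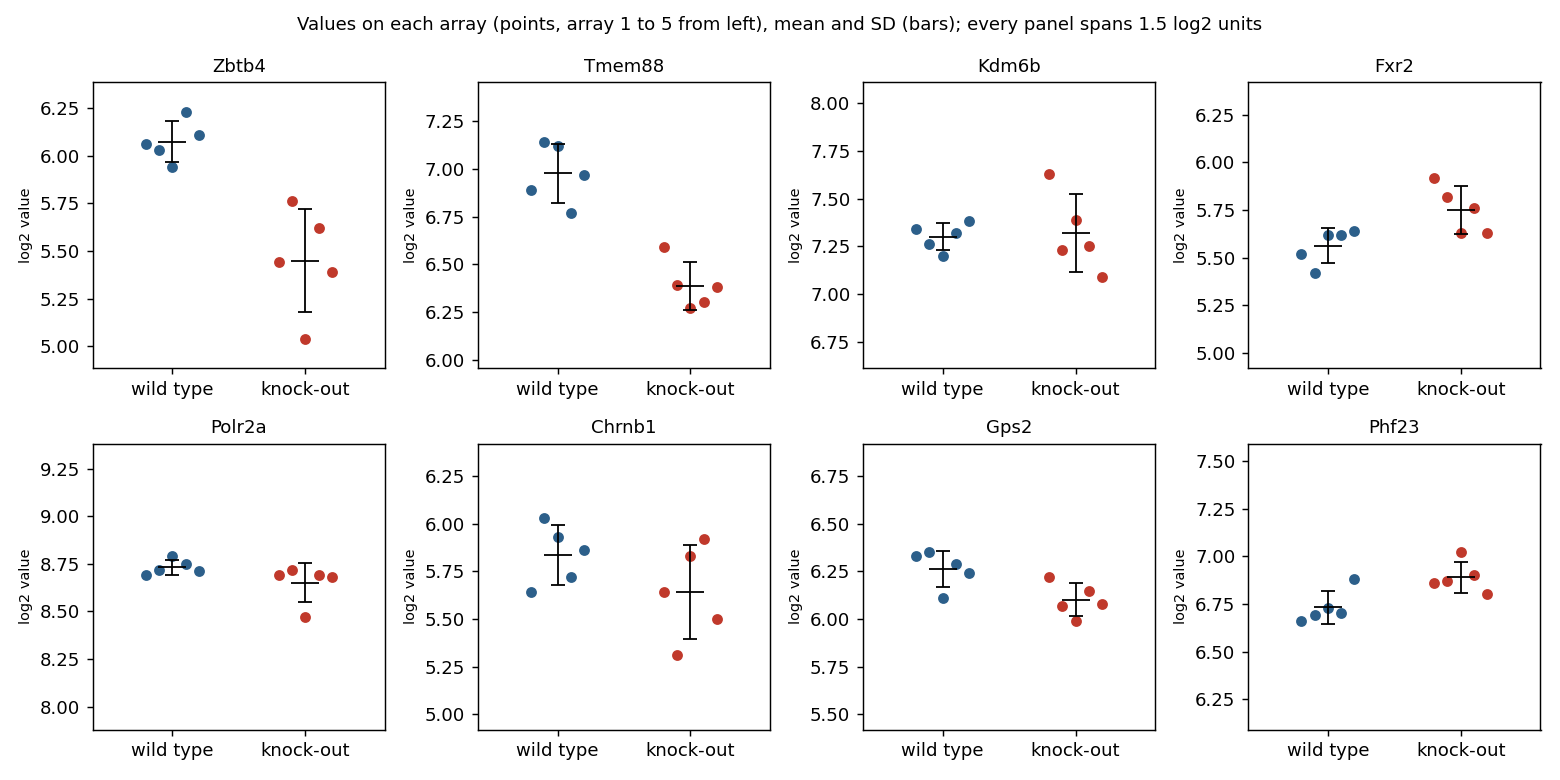
Log2 values on each array for Zbtb4 and 7 flanking genes, wild type in blue and knock-out in red; points run from array 1 to 5, bars give the mean and SD (n = 5), and every panel spans the same 1.5 log2 units. In Zbtb4 and Tmem88 the red points lie below all blue points, while in Kdm6b, Polr2a, Chrnb1, Fxr2, Gps2 and Phf23 the colours overlap.

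Tmem88, 20 coding genes from Zbtb4, was the neighbour whose genotypes stood apart. It encodes a membrane protein that binds Dishevelled and dampens Wnt signalling. Its log2 values were 6.59, 6.39, 6.27, 6.30 and 6.38 on knock-out arrays 1 to 5. On wild-type arrays 1 to 5 they were 6.89, 7.14, 7.12, 6.77 and 6.97. The highest knock-out array, 6.59, lay below the lowest wild-type array, 6.77.

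The Tmem88 difference was -0.59 (SE 0.093, 95% interval -0.79 to -0.39), or 1.5-fold lower signal, from 6.98 ± 0.16 in wild-type to 6.39 ± 0.13 in knock-out cells (SD, n = 5 each). Limma's unadjusted p was 2.49e-05, its adjusted p over 22180 genes was 0.276, and the exact two-sided permutation test gave 0.00794, the smallest value that 5 against 5 arrays allow. The groups of arrays were also apart after quantile normalization and after median centring, and leaving out any 1 array moved the difference no further than -0.64 and -0.55. The adjusted p ran from 0.107 to 0.951 over the settings and was under 0.05 in none of them. Earlier results of these data had already shown this gene, so its value is a description and not independent support.

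The genes around Tmem88 were not all measurable on their own. Kdm6b, its neighbour towards Zbtb4, encodes a demethylase of histone H3 lysine 27 and read 7.63, 7.23, 7.39, 7.25 and 7.09 in knock-out and 7.34, 7.26, 7.20, 7.32 and 7.38 in wild-type cells. The knock-out arrays lay on both sides of the wild-type range, and the difference was 0.014 (SE 0.098, 95% interval -0.20 to 0.23, limma adjusted p = 0.989), with a sign that turned to -0.0033 after median centring and to -0.021 when its 2 probe sets were averaged. Probe set 17251643, annotated to both Tmem88 and Naa38, differed by -0.099 (SE 0.069), with means of 7.04 ± 0.036 and 7.13 ± 0.099 (SD, n = 5 each) in knock-out and wild type. Probe set 17264636, annotated to both Cyb5d1 and Naa38, differed by -0.31 (SE 0.15) with overlapping groups. In limma over all 41345 probe sets their adjusted p-values were 0.872 and 0.849.

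Chd3, which encodes a helicase of the NuRD chromatin remodelling complex and is the outermost neighbour on this side, read 11.56, 11.16, 11.40, 11.34 and 11.19 in knock-out and 11.55, 11.45, 11.22, 11.52 and 11.25 in wild-type cells. The ranges were nearly the same, and the difference was -0.067 (SE 0.10, 95% interval -0.28 to 0.15, limma adjusted p = 0.933). It ran from -0.13 without knock-out array 1 to -0.024 without knock-out array 2. A list of other genes of NuRD or its helicase family held 7, all measured, with 2 higher and 5 lower means. The list does not hold every gene of the complex. Of all 68 measured genes listed as partners or paralogues of the neighbours, 1 had groups of arrays that did not overlap, beside 0.987% of all genes. It was Mta1, a scaffold of NuRD, with 8.99 to 9.09 in knock-out and 9.13 to 9.32 in wild-type cells. Its limma adjusted p was 0.823 (unadjusted 0.038).

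Partners of Tmem88 in Wnt signalling were taken from a list of the paralogue Tmem88b, other Dishevelled genes, the beta-catenin gene Ctnnb1 and genes known as targets or regulators of the pathway. The 15 measured of 16 split into 8 higher and 7 lower means, the differences ran from -0.21 to 0.20 around a median of 0.023, and 0 had an unadjusted limma p under 0.05. Dvl2, the Dishevelled gene that lies within this stretch of chromosome 11, differed by 0.056 (SE 0.073) with overlapping groups. The listed paralogues and partners of the neighbours together numbered 68 measured genes, 28 of them higher in knock-out cells by their mean and 40 lower (median -0.014). Of these 68, 1 was higher and 2 were lower at an unadjusted p under 0.05, together 4.41% beside 5.98% of all genes. The first was the synaptic scaffold gene Dlg2, which differed by 0.23, and the others were Mta1 at -0.16 and Naa30, the catalytic subunit gene of the acetyltransferase complex that contains Naa38, at -0.19.

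Genes of transcription and chromatin numbered 6 in this stretch, 3 with a higher and 3 with a lower mean, or 2 and 4 after median centring. Beside Polr2a, Chd3 and Kdm6b they include Gps2, a subunit of the NCoR and SMRT corepressor complex, with values of 6.22, 6.07, 5.99, 6.15 and 6.08 in knock-out and 6.33, 6.35, 6.11, 6.29 and 6.24 in wild-type cells. Only wild-type array 3 lay within the knock-out range, and the difference was -0.16 (SE 0.076, limma unadjusted p = 0.0532, adjusted p = 0.83, exact permutation p = 0.0317). The corepressor partners of Gps2, 3 of 5 measured, all had lower means (median -0.11), and 0 had an unadjusted p under 0.05.

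Phf23, which encodes a PHD finger protein, had the opposite sign, with values of 6.86, 6.87, 7.02, 6.90 and 6.80 in knock-out and 6.66, 6.69, 6.73, 6.70 and 6.88 in wild-type cells. Wild-type array 5 was the one that reached into the knock-out range. The difference was 0.16 (SE 0.074, limma unadjusted p = 0.054, adjusted p = 0.83, exact permutation p = 0.0317). Gps2 and Phf23 lay just outside the unadjusted limit of 0.05 and were picked out after their values were seen. Sox15, a transcription factor gene of the Sox family, differed by 0.055 (SE 0.12).

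Genes of RNA handling and translation numbered 5, of which 2 had a higher and 3 a lower mean, or 3 and 2 under quantile normalization. Fxr2, which encodes an RNA-binding relative of the fragile X protein, read 5.92, 5.82, 5.63, 5.76 and 5.63 in knock-out and 5.52, 5.42, 5.62, 5.62 and 5.64 in wild-type cells. The groups met at 5.63 and 5.64, where knock-out arrays 3 and 5 and wild-type array 5 lie together. The difference was 0.18 (SE 0.082, 95% interval 0.006 to 0.36), with a limma unadjusted p of 0.0442, an adjusted p of 0.83 and an exact permutation p of 0.0397. The unadjusted p stayed under 0.05 in 10 of 19 settings. The paralogues Fmr1 and Fxr1 had lower means, with a median of -0.069 over these 2 genes.

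Eif4a1, the RNA helicase of translation initiation, read 10.95, 10.82, 10.92, 10.24 and 10.54 in knock-out and 10.77, 10.96, 10.97, 11 and 10.96 in wild-type cells. Knock-out arrays 4 and 5 were the lowest of all, and the other 3 lay among the wild-type values. The difference was -0.24 (SE 0.13, 95% interval -0.51 to 0.036, limma adjusted p = 0.84, exact permutation p = 0.119), and it came to -0.12 without knock-out array 4. Its second probe set, 17264844, differed by -0.071 (SE 0.074).

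Eif5a, the hypusine-bearing translation factor gene, differed by -0.13 (SE 0.072, limma unadjusted p = 0.102, adjusted p = 0.842, exact permutation p = 0.0397), from 7.87 ± 0.071 in wild-type to 7.74 ± 0.086 in knock-out cells (SD, n = 5 each). Among other genes of both factors and of hypusine synthesis, 1 of 5 had a higher mean and 0 had an unadjusted p under 0.05. The Elongator subunit gene Elp5 differed by 0.019 (SE 0.085), and the 3 other Elongator genes measured had lower means (median -0.12). Wrap53, whose protein brings telomerase to Cajal bodies, differed by -0.021 (SE 0.10), a sign that turned to 0.0020 under quantile normalization.

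Genes of protein modification, metabolism and membranes numbered 8, with 4 higher and 4 lower means (5 and 3 under quantile normalization) and differences from -0.14 to 0.13. The lowest belonged to Mpdu1, which acts in the use of dolichol-linked mannose (-0.14, SE 0.084), and to the phospholipid scramblase gene Plscr3 (-0.13, SE 0.091). The highest belonged to Acadvl, the very long-chain acyl-CoA dehydrogenase of mitochondrial fat oxidation (0.13, SE 0.081), and to Tmem256 (0.10, SE 0.079). Senp3, a SUMO protease gene, differed by -0.021, or 0.0011 under quantile normalization, Sat2 by 0.092 and the nuclear envelope phosphatase gene Ctdnep1 by -0.043.

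Gabarap, which encodes a ubiquitin-like protein of autophagosomes, read 11.08, 11.07, 11.02, 11.19 and 11.10 in knock-out and 11.09, 11.11, 11.01, 10.91 and 11.11 in wild-type cells. The groups overlapped almost fully, with the highest value on knock-out array 4 and the lowest on wild-type array 4. The difference was 0.046 (SE 0.072, 95% interval -0.11 to 0.20, limma adjusted p = 0.938), and it came to 0.011 without wild-type array 4. Its second probe set gave 0.053 (SE 0.068).

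Genes known from nerve and muscle numbered 5, with Chrnb1 among them, 2 with a higher and 3 with a lower mean, or 1 and 4 under quantile normalization and after median centring. Atp1b2, a beta subunit gene of the sodium pump, differed by -0.28 (SE 0.16, 95% interval -0.63 to 0.069, limma adjusted p = 0.842), with knock-out values from 2.98 to 3.55 and wild-type values from 3.0 to 4.02, all below their array's median. Nlgn2, an adhesion protein gene of inhibitory synapses, differed by 0.12 (SE 0.12), and Dlg4, which encodes the postsynaptic scaffold PSD-95, by -0.046 (SE 0.079). Slc2a4, the insulin-responsive glucose transporter gene, differed by 0.0065, and by -0.0011 under quantile normalization and -0.011 after median centring. The 10 skeletal muscle markers had mean levels of 4.23 to 4.59 on the knock-out and 4.17 to 4.42 on the wild-type arrays. Of them 6, Myod1, Myf5, Ckm, Myh3, Myh8 and Tnnt1, lay below the array median on all 10 arrays, and 2 lay above it on all 10. The mean of 8 neuron markers lay between 4.48 and 4.66 on all arrays, with 3 markers below and 3 above the array median on all 10. The part of either cell type in the values of these 5 genes was not tested.

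Cd68, which encodes a lysosomal glycoprotein of macrophages, was the neighbour with the widest spread between arrays. Its values were 6.09, 5.16, 6.22, 5.57 and 4.8 in knock-out and 5.58, 5.97, 5.43, 5.54 and 5.26 in wild-type cells. Knock-out arrays held both the highest and the lowest values, with an SD of 0.60 against 0.26 in the wild type, and the difference of 0.013 (SE 0.24, limma adjusted p = 0.996) ran from -0.15 without knock-out array 3 to 0.20 without knock-out array 5 and turned to -0.0043 after median centring. In bulk RNA, fewer cells of a type and less RNA per cell cannot be told apart.

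Other macrophage and leukocyte markers varied on the same arrays. The mean of 12 markers was 4.75, 4.45, 5.45, 4.81 and 4.12 on knock-out arrays 1 to 5 and 4.61, 4.63, 4.35, 4.8 and 4.45 on wild-type arrays 1 to 5, highest on knock-out array 3 and lowest on knock-out array 5 as for Cd68. Of the 12, 10 had a higher and 2 a lower mean in knock-out cells. On all 10 arrays, 4 of the 12 (Adgre1, Itgam, Ptprc and Mrc1) lay below the array median and 4 others lay above it. The part of macrophage content in the Cd68 values was not tested. All 10 fibroblast markers, among them Col1a1, Col1a2, Pdgfrb, Vim and Prrx1, lay above the median on every array, with mean levels from 9.25 to 9.59, and 3 had a higher and 7 a lower mean in knock-out cells (median -0.016). The mean of 10 endothelial markers was 3.78 to 4.04 on the knock-out and 3.66 to 3.9 on the wild-type arrays. Of them 6, Cdh5 and Pecam1 included, lay below the median on all 10 arrays, and 2 lay above it on all 10. Of the 10 endothelial markers, 8 had a higher and 2 a lower mean in knock-out cells (median 0.12).

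**Figure D3:**
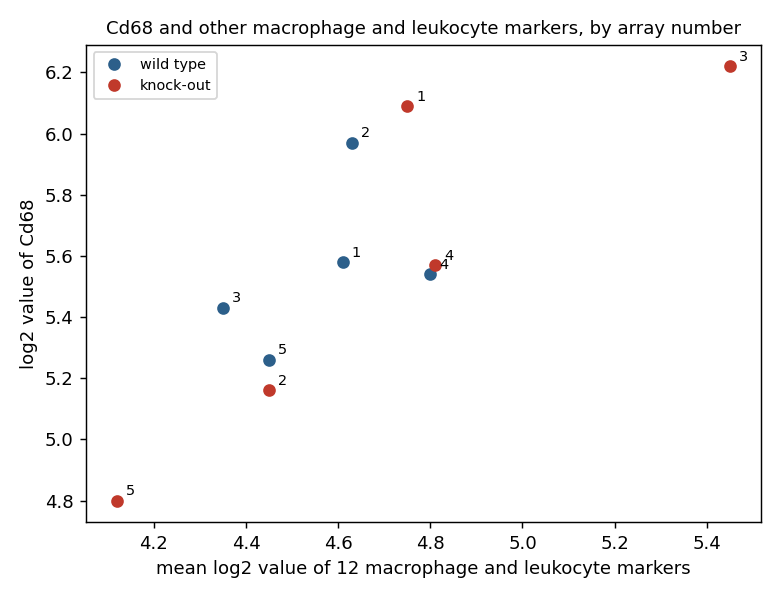
Log2 value of Cd68 against the mean log2 value of 12 macrophage and leukocyte markers, 1 point per array, numbered, with wild type in blue and knock-out in red. Knock-out array 3 (5.45, 6.22) and knock-out array 5 (4.12, 4.8) mark the ends on both axes, and the wild-type arrays lie between them.

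The remaining genes of signalling and trafficking had intervals that include 0. Efnb3, a transmembrane ephrin ligand gene, differed by 0.17 (SE 0.15, 95% interval -0.14 to 0.49), Neurl4 by -0.048 (SE 0.12) and the Arf GTPase-activating protein gene Acap1 by 0.035 (SE 0.12). Their groups of arrays overlapped. Tnfsf12 and Tnfsf13, the ligand genes for TWEAK and APRIL, share one probe set, 17264884, with a readthrough transcript. That probe set differed by -0.0041 (SE 0.089), and of the 3 receptor genes measured for these ligands 2 had a higher and 1 a lower mean.

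Genes known from testis, cilia, epithelium and liver lay mostly at low signal, and 7 of these 8 were below the median of all 10 arrays. The 4 of testis and cilia had higher means (3 of 4 under quantile normalization or median centring), and those of epithelium and liver split into 2 higher and 2 lower (1 and 3 under quantile normalization). Spem1, a spermatid maturation gene, read 2.07, 2.63, 2.66, 2.28 and 3.03 in knock-out and 2.23, 2.54, 1.84, 2.01 and 2.53 in wild-type cells. It had the largest positive difference among the neighbours, 0.31 (SE 0.18, 95% interval -0.082 to 0.69, limma adjusted p = 0.842), with overlapping groups, and 0.18 without knock-out array 5. Asgr2, a subunit gene of the hepatic asialoglycoprotein receptor, read 2.72, 2.67, 2.65, 2.68 and 2.58 in knock-out and 2.24, 3.01, 2.75, 2.59 and 3.01 in wild-type cells. Its difference was -0.058 (SE 0.13), all knock-out values lay within the wild-type range, and the sign turned without wild-type array 2 (0.014) or 5 (0.014).

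The partner subunit gene Asgr1 differed by 0.16 (SE 0.098), Shbg, which encodes sex hormone-binding globulin, by -0.19 (SE 0.11), and the claudin gene Cldn7 by 0.020 (SE 0.14), or -0.0013 under quantile normalization. The germ cell Y-box gene Ybx2 differed by 0.0026 (SE 0.085), or -0.011 under quantile normalization and -0.015 after median centring, and the axonemal dynein gene Dnah2 by 0.17 (SE 0.10). Of 7 hepatocyte markers, 5, among them Alb and Afp, lay below the median on all 10 arrays, and 1 lay above it on all 10. All 7 had higher means in knock-out cells (median 0.0785). Their mean level was 3.40 to 3.51 on the knock-out and 3.31 to 3.44 on the wild-type arrays, and its part in these values was not tested. The signs in the marker lists were not checked under quantile normalization or median centring.

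**Figure D4:**
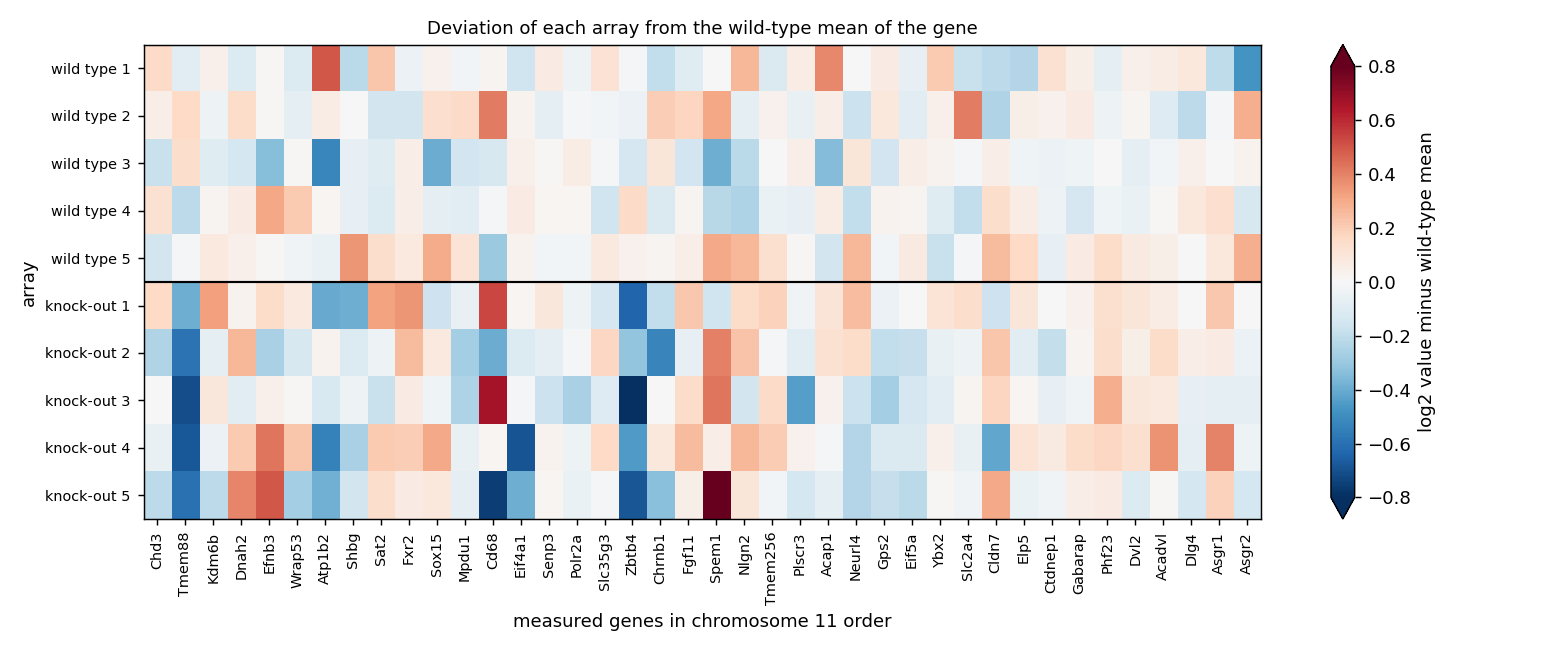
Deviation of every array from the gene's wild-type mean, for Zbtb4 and 39 flanking genes in chromosome order, with wild-type arrays above the line and knock-out arrays below it; red is higher, blue is lower, and colours saturate at 0.8 log2 units. The Tmem88 and Zbtb4 columns are blue on all 5 knock-out arrays, while Cd68 runs from red on knock-out array 3 to blue on knock-out array 5.

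Spread within genotypes was ordinary for these arrays. The median within-group SD was 0.155 over the 39 neighbours and 0.162 over all genes, and the median SE of a difference was 0.098 and 0.101. The number of arrays limits the precision: at the median SE, a single neighbour's 95% interval reaches about as far as that of Kdm6b, -0.20 to 0.23. A p that misses the threshold therefore does not show that a gene is equal in both genotypes.

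The CpG content of the promoters was set beside the differences. The median was 11 CpGs over the 31 measured neighbours with a window and 7 over the windows of 27025 genes, measured or not. Of the 16990 measured genes with a window, 9114 lay above 11 CpGs and 7876 at or below. Beside measured genes, the neighbours were thus not richer in CpG by this count. Of the 15 neighbours above 11 CpGs, 6 had a higher and 9 a lower mean, with a median difference of -0.043. Of the 16 at or below 11, 11 had a higher and 5 a lower mean, with a median of 0.033. All measured genes with a window showed the same direction of split, with 44.3% higher means above 11 CpGs (median -0.015) and 57.6% at or below (median 0.022). The direction of the neighbours' split is therefore not particular to them. Sizes went the other way. The median absolute difference above and at or below 11 CpGs was 0.1177 and 0.075 in the neighbours. Over all measured genes with a window it was 0.0719 and 0.0845. This contrast was not tested.

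**Figure D5:**
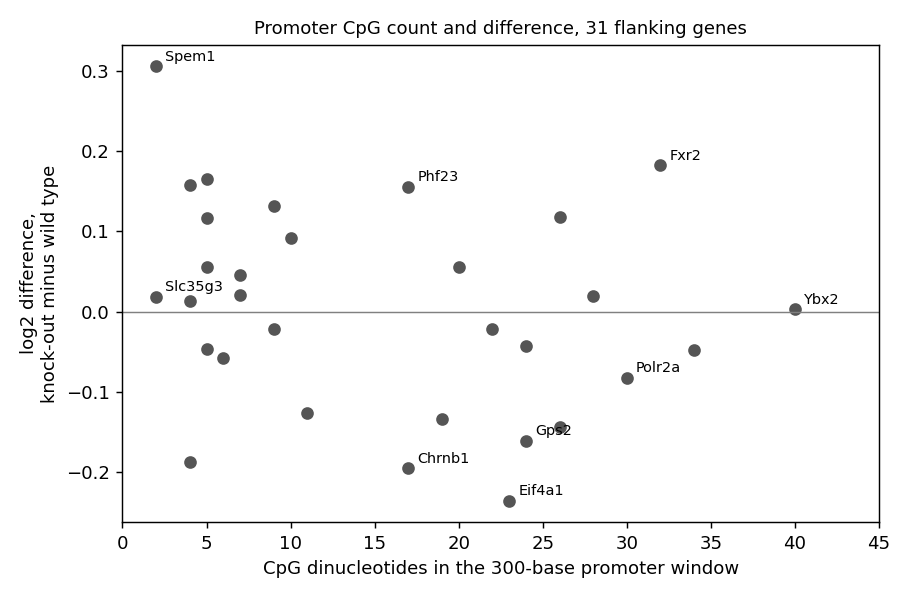
CpG dinucleotides in the 300-base promoter window against the log2 difference, knock-out minus wild type, for 31 flanking genes, 1 point each. Points lie on both sides of 0 above 11 CpGs as well as at or below, and the counts run from 2 (Slc35g3, Spem1) to 40 CpGs (Ybx2).

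Binding sequences described for Zbtb4 and its relative Kaiso were searched on both strands of the 35 windows. CTGCCATC was found in 1 window, that of Neurl4, beside 1.35% of all windows. CCGCCATC was found in 0, beside 1.74%, and TCCTGCNA in 0, beside 4.92%. None of these motifs contains another. A match describes letters and not a bound site, and Neurl4, which differed by -0.048, had overlapping groups of arrays.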

How the data were processed

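Total RNA of 10 mouse embryonic fibroblast samples was measured on 1-colour Affymetrix arrays. The deposited table holds the authors' log2 values, as judged from their range; the steps from scan to value (summarising probes, background, normalization) are not stated in the sources used here. If arrays were set to 1 distribution, a change in RNA per cell cannot be seen. Probe sets were named through GEO's platform annotation: 23521 of 41345 carry 1 symbol, 1814 several and 16010 none. Of the 23521, 23328 were found by Entrez identifier in RefSeq, and 0 symbols changed. Each gene was read from its brightest probe set by mean, which gave 22180 genes. Gene order came from the RefSeq table, and since the arrays' build is not named, no gene coordinates are printed from it. Promoter windows are RefSeq's for GRCm38.p6.

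Knock-out minus wild type was fitted over all genes with lmFit and eBayes (limma 3.58.1, R 4.3.3) with no filter or covariate, Benjamini-Hochberg adjustment over 22180 genes and a threshold of 0.05. For single genes an exact permutation test, two-sided, covered the 252 splits of 10 arrays. It was run for Zbtb4 and the 39 measured neighbours only. No share of all genes therefore stands beside its p-values, which were not adjusted. The same kind of limma comparison was tried on simulated data with known changes, and the other steps were not tested in this way. Alternatives are in the closing section.

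Named with all values were neighbours with an unadjusted p under 0.05 or groups apart, those next to Zbtb4, the 3 with the highest and the 3 with the lowest mean, and Cd68, Chrnb1, Kdm6b and Polr2a. Gps2 and Phf23 were added after their values were seen, as were the role groups. The neighbours and lists were chosen with earlier results of these data known. Figures were drawn with matplotlib 3.10.9.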

Additional observations from a re-analysis of the deposited data

Results flagged for a closer look

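Within each genotype, Zbtb4 and the 39 neighbours were searched for a single array far from the other 4 (80 groups of 5 arrays, where chance gives about 1 in 20, or 4). There were 2 such arrays. Eif4a1 was 10.77 on wild-type array 1, with the other wild-type arrays between 10.96 and 11. Polr2a was 8.47 on knock-out array 3, with the other knock-out arrays between 8.68 and 8.72.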

How the results depend on the processing

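Under 18 alternatives, 10 of which leave out one array, 0 neighbours passed an adjusted p under 0.05, and 26 of 39 kept their sign in every setting they entered. The share of all genes called or not overlapping was taken in the main setting only. The counts below therefore cannot be read as changes particular to the neighbours. The count with an unadjusted p under 0.05 and a higher mean, 1, became 2 with quantile normalization, without the dimmest 40% of genes (30 neighbours left), with array weights and at a limit of 0.1, and 0 with median centring and at a limit of 0.01. The count with a lower mean, 1, became 2 with median centring and without the dimmest genes, and 3 at a limit of 0.1. The count of non-overlapping groups, 1, became 2 with quantile normalization. When 1 array was left out, these counts ran from 0 (without knock-out array 2, 4 or wild-type array 1, 2 or 4) to 3 (without knock-out array 3), from 1 to 4 (without knock-out array 1) and from 1 to 3 (without wild-type array 5), and the median difference from -0.026 (without knock-out array 1) to 0.025. Kdm6b turned to -0.0033 with median centring and -0.021 with averaged probe sets, and when 1 array was left out its range was -0.065 to 0.072. Cd68 turned to -0.0043 with centring and -0.058 with array weights, and ran from -0.15 to 0.20. Slc35g3 ran from -0.022 to 0.056 and Asgr2 from -0.18 to 0.014. The cause was not tested.

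Same-numbered arrays of both genotypes deviated from their group means with correlations of 0.165, -0.0455, -0.00408, -0.0128 and 0.059, so the numbers were not taken to pair them. With the replicate block, 1 neighbour was again higher and 1 lower at an unadjusted p under 0.05, but the higher one was Spem1 (0.31, limma unadjusted p = 0.0444) and not Fxr2. Tmem88, at -0.59, had an adjusted p of 0.713. No detection call accompanies the values, so what the low-signal genes can show is limited.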

Other observations

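Probe sets that carry the symbols of more than one gene were left out of the comparison. Beside those given above, 17264996, annotated to Tnk1 and Plscr3, differed by -0.19 (SE 0.098), 17251744 and 17264971, both annotated to Tmem102 and a long non-coding RNA, by 0.15 (SE 0.12) and 0.014 (SE 0.096), and 17251898, annotated to Dvl2 and Mir324, by 0.096 (SE 0.18). Their adjusted p-values in limma over all probe sets were 0.858, 0.889, 0.99 and 0.957, and their groups of arrays overlapped. Second probe sets of Chd3, Kdm6b and Dnah2 differed by -0.15 (SE 0.11), -0.057 (SE 0.13) and -0.014 (SE 0.074), where the probe sets used gave -0.067, 0.014 and 0.17.

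Within the span, 5 measured genes that are neither Zbtb4 nor on the list had differences from -0.56 to 0.22, 3 higher and 2 lower. Of these 5, 1 had an unadjusted limma p under 0.05, beside 5.98% of all genes, and so few genes give no usable share. This was the microRNA gene Mir467f, named after its values were seen, with means of 4.28 ± 0.57 and 4.84 ± 0.31 (SD, n = 5 each) in knock-out and wild type and overlapping groups (limma, adjusted p = 0.821). In RefSeq it lies within the bounds of Fxr2, whose own difference had the opposite sign.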
